A study of Homo sapiens with 4 samples.

Results

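The Arp8 KO array was compared with the Arp5 KO array directly, without passing through the WT array. Both come from Nalm-6, a human pre-B leukemia cell line, and differ in which actin-related protein of the INO80 complex was removed. The pair makes up 2 of the 4 arrays of the study. The others are WT cells and a culture whose label gives overexpression of Arp8 (Arp8 OE), and they are used here only to place the levels of the pair. Arp5 KO cells carry targeted disruption of both alleles of ACTR5, the gene for Arp5, and are 1 established cell line. Arp8 KO cells carry disruption of ACTR8, the gene for Arp8, and were made earlier in a similar way. The study's discussion cites an earlier conditional knockout of Arp8 that cells did not survive, and describes Arp5 KO cells as slow to grow. Whether the Arp8 KO culture on the array is that conditional line is not given in the sources used here, so a difference in growth or survival cannot be told apart from the loss of either protein. By the treatment protocol, heme was added at 20 uM for 12 hours to induce oxidative stress. The labels disagree for the pair: titles give heme for both knockouts, the treatment field gives no heme for both, and the source field gives heme for Arp8 KO only. A difference between the 2 arrays can therefore not be told apart from a difference in treatment. Each group had 1 array, so no difference was checked against a replicate culture and no test was made.

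INO80 is a large complex that moves and reshapes nucleosomes with the energy of ATP and acts in transcription, replication and DNA repair. Its actin family members sit in different modules: Arp8 lies with actin and Arp4 in a module that touches DNA and histones, and Arp5 lies in a module joined to the complex through the Rvb helicases. Neither protein is known as a stable part of another remodelling complex. A direct comparison asks whether cells that lack one differ from cells that lack the other.

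The level of a probe is the log2 ratio of its processed signal to the 75th percentile of such signals on the same array. Every difference given as Arp8 KO minus Arp5 KO is positive where Arp8 KO was higher. Of 41000 probes, 22495 (54.9%) were well above background on both arrays and were compared. They include 17016 probes that name 11410 genes. The median difference was 0.02, and 84.5% of the probes lay within 0.5 of 0. There were 373 probes over 2-fold higher in Arp8 KO (1.66%) and 409 over 2-fold lower (1.82%), together 3.48% of those compared. They name 173 genes that were higher and 267 that were lower by at least 1 probe. Past 4-fold, 36 probes were higher and 37 were lower. Just inside the 2-fold line lay ASCC3 and DEPP1, each at a difference of 1.0, and FARP1 at -1.0. RMI2 and PHLDA1 lay just outside it, at -1.0 to the same precision.

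**Figure D1:**
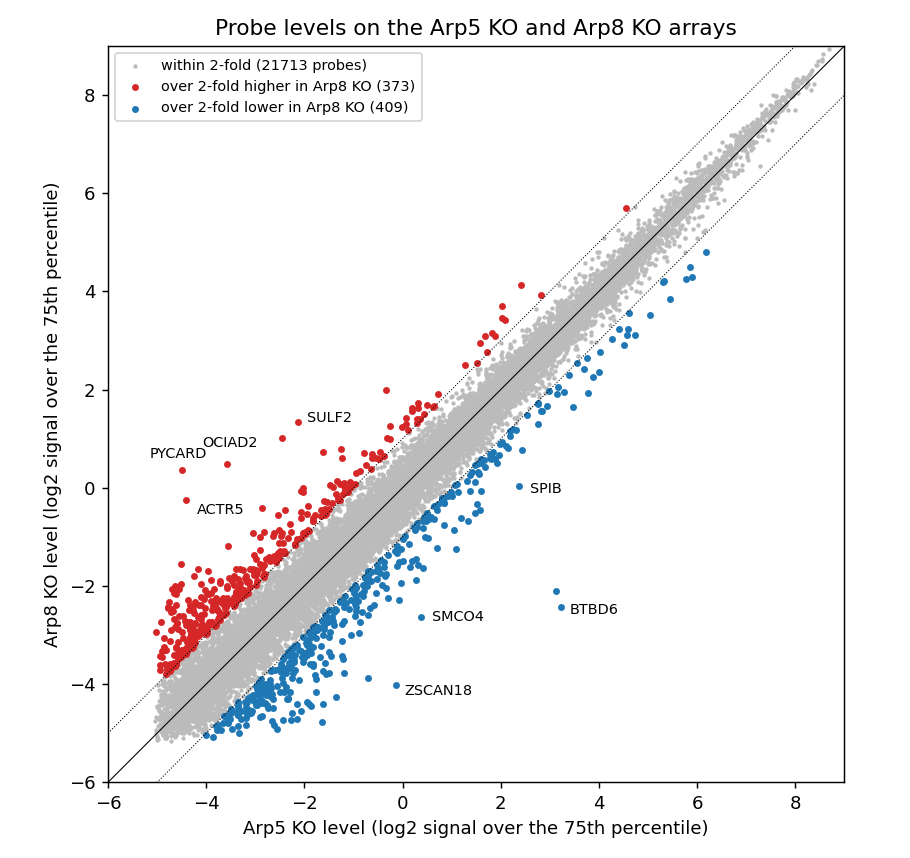
Levels of the 22495 probes compared, on the Arp5 KO array (x axis) and the Arp8 KO array (y axis), both as log2 of the signal over the array's 75th percentile. The solid line marks equal levels and the dotted lines 2-fold. PYCARD, ACTR5 and OCIAD2 lie far above the lines, and BTBD6, ZSCAN18 and SMCO4 far below.

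The precision within an array could be read from probes printed in several places. Of those with 5 or more usable spots, 181 were well above background on both arrays. The SD of a difference, taken from the spread of the spots on both arrays, had a median of 0.08. Over all 181 probes, the spots of the 2 arrays overlapped for 83. In 8 of the 181 the difference was past 2-fold, and in none of the 8 did the spots overlap. A 2-fold difference is far above this SD, so the lack of overlap follows from the choice of the 8. Of the 4184 genes with 2 or more probes compared, 58 had a probe over 2-fold higher and 104 a probe over 2-fold lower, and no gene had both. All probes of the gene were past 2-fold for only 13 of the 58 and 31 of the 104. They lay on the same side of 0 for 49 of the 58 and for 81 of the 104. This spread covers the array only, not the culture.

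The targeted genes came first, since they check the labels. ACTR5 had a level of -4.40 on the Arp5 KO array, whereas Arp8 KO read -0.24, WT -0.13 and Arp8 OE -0.41. It was 17.9-fold lower in Arp5 KO, and the Arp5 KO array alone was low. ACTR8 was measured by 2 probes, which read -1.55 and -0.44 in Arp8 KO against -1.11 and 0.01 in Arp5 KO, 1.36-fold lower in Arp8 KO by both. In WT these probes read -1.02 and 0.25, and in Arp8 OE -1.01 and 0.23, so neither a loss of most of the ACTR8 signal in Arp8 KO nor a gain in Arp8 OE was seen. Where these probes lie in relation to the deleted part of ACTR8 is not given in the sources used here, and a probe outside it checks nothing. All 11 pre-B markers, among them CD79A, CD79B, PAX5, EBF1, VPREB1 and IGLL1, were well above background on every array. Of the T cell markers, CD2, CD28, CD3D and CD3G did not pass the flag on any array, CD3E passed in Arp8 KO alone, and CD8A passed on every array but Arp8 KO.

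Most other subunits of the INO80 complex lay close to equal levels in the knockouts. The list held 23 probes of 16 genes with a median difference of -0.03. INO80, the ATPase, was measured by 2 probes at differences of 0.22 and 0.29, and lay at 3.06 in Arp8 KO, 2.76 in Arp5 KO and 2.06 in WT by the brighter one. RUVBL1 and RUVBL2, the helicases, had differences between -0.25 and 0.12. ACTL6A, the gene for Arp4, had a difference of -0.04. Besides ACTR5, only INO80B was past 2-fold. It read -3.0 in Arp8 KO against -1.05 in Arp5 KO, and its spot lies beside spots that were bright on the Arp5 KO array alone. The part of those spots in the difference was not tested. In the list of other chromatin remodellers, none of 63 probes was past 2-fold, and the median was 0.11.

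The largest differences belonged to genes with a low level on 1 array of the pair. PYCARD, which encodes the inflammasome adaptor ASC, had levels of 0.35 in Arp8 KO against -4.49 in Arp5 KO, with -0.16 in WT and 0.92 in Arp8 OE. It was 28.7-fold higher in Arp8 KO, and the low array was Arp5 KO alone. OCIAD2, an OCIA domain protein, was by far lowest in Arp5 KO, with levels of 0.49 in Arp8 KO against -3.57 in Arp5 KO, with 2.11 in WT and 0.98 in Arp8 OE. It was 16.7-fold higher in Arp8 KO than in Arp5 KO, but Arp8 KO and Arp8 OE also lay below WT. In the other direction, BTBD6, a BTB domain adaptor of cullin ubiquitin ligases, read -2.43 in Arp8 KO against 3.22 in Arp5 KO, with 3.56 in WT and -0.49 in Arp8 OE. It was 50.5-fold lower in Arp8 KO. ZSCAN18, a zinc finger gene with a SCAN domain, read -4.01, -0.14, 0.57 and -3.20 in the same order, and was 14.6-fold lower in Arp8 KO. Here Arp8 OE lay nearer to Arp8 KO than to WT. SMCO4, a small membrane protein, was 8.07-fold lower and equally low in Arp8 OE, with levels of -2.64, 0.38, 1.04 and -2.67.

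PYCARD and ZSCAN18 are known as genes that tumours silence by methylation of CG-rich promoters. The 150 bases before the RefSeq start of 4 of these genes (GRCh38.p14, on the strand of the gene) are therefore shown, 5′ to 3′, with each CG dinucleotide in capitals. Methylation was not measured in these files. For OCIAD2 and ZSCAN18 the first of 2 listed starts was used.
PYCARD (chr16:31202761-31202910, minus strand): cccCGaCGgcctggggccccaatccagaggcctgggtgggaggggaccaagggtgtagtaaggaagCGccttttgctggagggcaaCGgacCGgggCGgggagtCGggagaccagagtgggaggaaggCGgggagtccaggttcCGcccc
OCIAD2 (chr4:48906829-48906978, minus strand): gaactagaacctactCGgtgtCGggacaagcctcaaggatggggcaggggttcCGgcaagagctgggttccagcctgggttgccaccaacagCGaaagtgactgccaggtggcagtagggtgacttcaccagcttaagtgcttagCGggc
BTBD6 (chr14:105248383-105248532, plus strand): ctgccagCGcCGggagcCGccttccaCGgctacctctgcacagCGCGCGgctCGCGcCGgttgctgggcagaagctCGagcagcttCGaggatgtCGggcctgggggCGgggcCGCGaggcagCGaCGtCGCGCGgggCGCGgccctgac
ZSCAN18 (chr19:58118405-58118554, minus strand): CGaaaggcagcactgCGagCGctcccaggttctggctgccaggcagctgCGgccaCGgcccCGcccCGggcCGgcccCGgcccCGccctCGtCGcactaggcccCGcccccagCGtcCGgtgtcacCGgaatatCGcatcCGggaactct
These stretches hold 9, 5, 23 and 18 CG dinucleotides. PYCARD and OCIAD2, low in Arp5 KO, had a ratio of observed to expected CG of 0.60 and 0.49 over the full window of 250 bases before and 50 after the start. BTBD6 and ZSCAN18, low in Arp8 KO, had ratios of 1.07 and 0.98. Over the 9254 genes compared that had such a window, the median ratio was 0.85 and 82.8% were above 0.6. Of the 267 genes over 2-fold lower in Arp8 KO, 221 had a window and 68.8% of these were above 0.6. Without the run of genes on chromosome 9 described below, 190 had a window and 63.7% were above 0.6. The same check is void for the 173 genes that were higher, because only 133 (76.9%) had a window.

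Among the genes that were lower in Arp8 KO, 6 short motifs were searched on both strands of the window. The GC box (GGGCGG) was found in 74.2% of the 221 windows and in 70.3% of the windows of all genes compared. The core of the antioxidant response element (TGACNNNGC), which binds NRF2 and BACH1 with small Maf proteins, was found in 12.7% and 15.7%, the CCAAT box (CCAAT) in 34.8% and 37.8%, and the cyclic AMP response element (TGACGTCA) in 3.17% and 3.35%. The TATA box core (TATAAA) was found in 8.60% and 5.66%. The C/EBP-ATF element (TGATGCAA) was found in 1.81% (4 of the 221 windows) and in 0.54% of all. Without the run on chromosome 9, the GC box was found in 71.1% of 190 windows and the antioxidant element in 11.6%. The CCAAT box was then found in 35.3%, the cyclic AMP element in 3.16%, the TATA box core in 9.47% and the C/EBP-ATF element in 2.11%. Matches of different motifs can overlap, and a match is only a match of letters.

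Below these genes in size came SULF2, a sulfatase that edits heparan sulfate outside the cell. It read 1.35 in Arp8 KO against -2.14 in Arp5 KO, with -2.76 in WT and -1.36 in Arp8 OE, 11.2-fold higher in Arp8 KO than in Arp5 KO. Arp8 KO was the only array with a high level. CD86, a co-stimulatory ligand of B cells, APOBEC3H, an antiviral cytidine deaminase, and CD33, a sialic acid-binding receptor best known from myeloid cells, were 5.65-fold, 5.46-fold and 4.12-fold higher in Arp8 KO. CD33 was measured by 2 probes at differences of 2.04 and 2.01. Its level was 0.78 in Arp8 KO against -1.26 in Arp5 KO, with -1.61 in WT and -1.09 in Arp8 OE by one probe, and -0.07, -2.08, -2.44 and -1.94 by the other. Of the other myeloid markers, ELANE, ITGAM, MPO and S100A8 did not pass the background flag on any array, LYZ passed in Arp8 KO alone, S100A9 in Arp8 OE alone, and CSF1R in WT and Arp8 OE but in neither knockout. CD14 passed on all arrays and had a difference of 0.22. With bulk RNA, more cells of a kind and more RNA per cell cannot be told apart. The summed level of the 9 myeloid markers was 1.95 times the 75th percentile in Arp8 KO, against 0.611 times in Arp5 KO, and between these values in Arp8 OE. CD33 is part of this sum, so the sum is no separate measurement of myeloid genes. ACTA2, the actin of smooth muscle, was 4.03-fold higher in Arp8 KO (-2.02 in Arp5 KO and -0.01 in Arp8 KO). PTPRM, a receptor tyrosine phosphatase, and BACE2, an aspartyl protease, were 5.10-fold and 4.68-fold higher in Arp8 KO and were as high in Arp8 OE, at 0.96 and -2.71 against 0.73 and -2.47.

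The other genes furthest lower in Arp8 KO had varied roles. SPIB, an Ets factor of the B lineage, read 0.03 in Arp8 KO against 2.38 in Arp5 KO, with 2.43 in WT and 1.41 in Arp8 OE, 5.09-fold lower in Arp8 KO. Its dimmer probe was 2.18-fold lower. CD96, a receptor of T and NK cells, had differences of -2.56 and -1.81 by its 2 probes, and its levels in WT, Arp5 KO and Arp8 OE were all above that in Arp8 KO. PTGER2, a receptor for prostaglandin E2, was 4.38-fold lower. LZTFL1 (4.65-fold), the protocadherin gene PCDH9 (4.46-fold), the glutamate transporter gene SLC1A3 (4.61-fold), the glycine-cleaving enzyme gene GLDC (3.99-fold) and DERL3 (3.96-fold), which acts in the disposal of misfolded proteins, were lower too. ANXA2, an annexin, was 4.12-fold lower by the probe with the larger difference and had a difference of -2.03 by the other. The probe named for its pseudogene ANXA2P1 (4.71-fold) may share sequence with it and is no separate measurement.

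**Figure D2:**
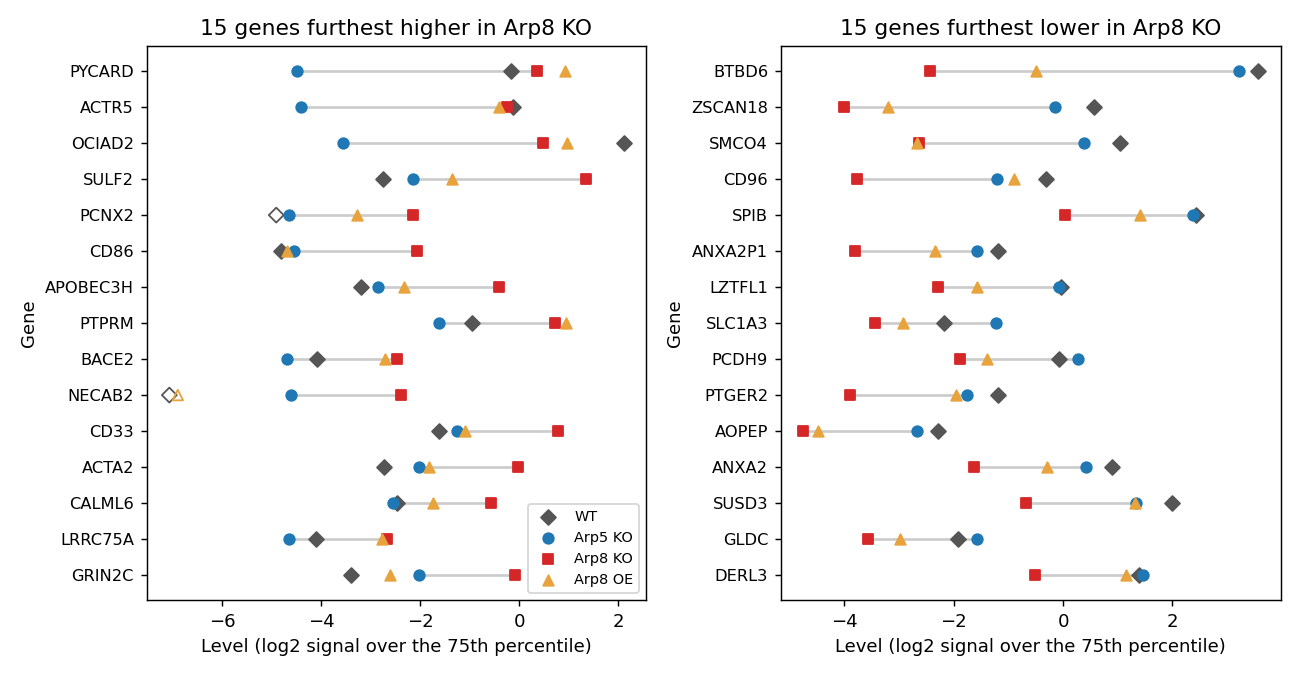
Levels on all 4 arrays of the 15 genes furthest higher (left) and the 15 furthest lower (right) in Arp8 KO against Arp5 KO, as log2 of the signal over the 75th percentile. Probes beside a spot bright on a single array of the pair were left out of this ranking. Grey bars join the pair, and open symbols mark values not well above background. PYCARD and ACTR5 are low in Arp5 KO alone and OCIAD2 is by far lowest there, while SULF2, CD33 and ACTA2 are high in Arp8 KO alone.

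Genes with 2 or more probes were also ranked by the smallest difference among their probes. Agreement between the probes of the genes named here follows from that choice. The genes whose smallest difference was highest were CD33 and BACE2, followed by CDKN1A, SESN1, TMEM150A, ZMAT3, SYT15, PLEKHA1, HBEGF and FBXO22. The EGF family ligand HBEGF had differences of 1.19 and 1.37. On the other side stood ANXA2 and ZNF93, a zinc finger gene with differences of -1.96 and -2.05, followed by CD96, AOPEP, EYA4, ESAM, TXN, ADCY7 and GNG10. The transcriptional co-activator gene EYA4 had differences of -1.75 and -1.79, with levels of -2.45 in Arp8 KO and -0.66 in Arp5 KO by the brighter probe.

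The probes printed in several places show how tight single differences were. CDKN1A, which encodes the cell cycle inhibitor p21, ranged from 2.27 to 2.5 over the spots of the Arp5 KO array and from 4.01 to 4.18 over those of Arp8 KO, a difference of 1.72 ± 0.08 (SD from 10 spots on each array). JUN, a subunit of AP-1, had a difference of 1.52 ± 0.07, and FAS, the death receptor, of 1.21 ± 0.15. LCK, a Src family kinase, ranged from -0.79 to -0.65 in Arp5 KO and from -2.69 to -2.48 in Arp8 KO, a difference of -1.89 ± 0.09. PTPN6, a phosphatase that restrains antigen receptor signals, differed by -1.46 ± 0.09, SPP1, the gene for osteopontin, by -1.49 ± 0.10 and TERT, the telomerase reverse transcriptase, by -1.08 ± 0.08. In none of these did the spots of the knockouts overlap. LOXL2, a lysyl oxidase, differed by 1.20 ± 0.12. Some spots of LCK, JUN, CDKN1A and LOXL2 lay beside a spot bright on a single array of the pair, and their part was not tested.

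**Figure D3:**
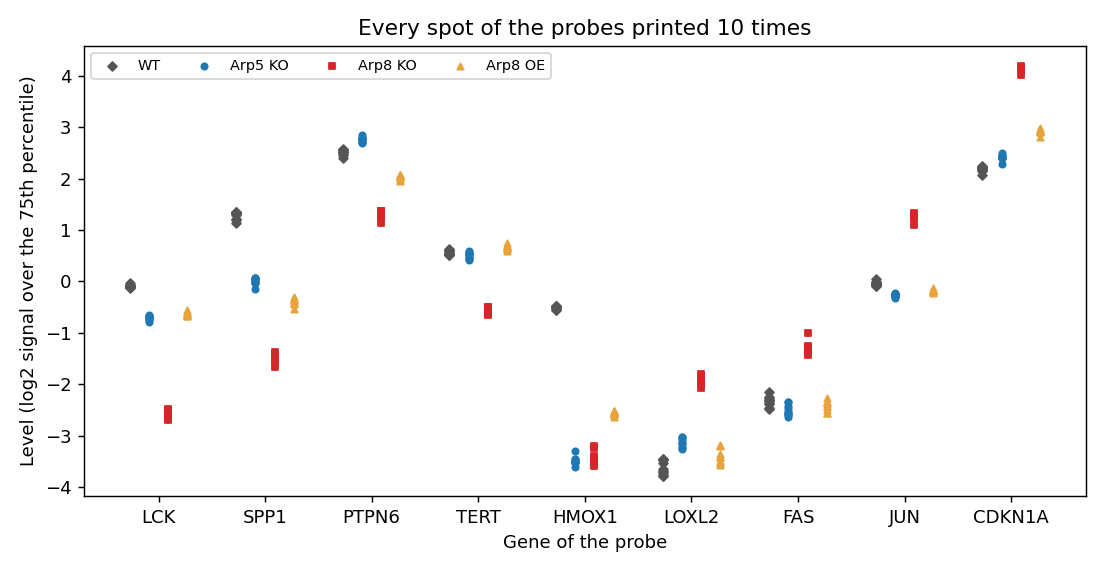
Level of every usable spot (log2 of the signal over the 75th percentile) on the 4 arrays, for the 8 probes printed in several places that were past 2-fold and for HMOX1. The spots of Arp5 KO and Arp8 KO are apart for all 8, and overlap for HMOX1 between -3.59 and -3.30.

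HMOX1, the heme oxygenase gene that heme induces, did not separate the knockouts. Its spots ranged from -3.60 to -3.30 in Arp5 KO and from -3.59 to -3.20 in Arp8 KO, and the difference was 0.07 ± 0.14 (SD from the spots). Both knockouts lay below WT at -0.51, and below Arp8 OE at -2.56. GPX3 and GSTM3, detoxifying enzymes, were not well above background in either knockout.

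Other targets of NRF2, the activator of the antioxidant response, and of BACH1, its heme-sensing repressor, were mostly lower in Arp8 KO. The list held 30 probes of 18 genes. None was over 2-fold higher, 8 were over 2-fold lower, and 28 were below 0, with a median difference of -0.53 against 0.02 over all probes compared. FTH1, the ferritin heavy chain, was lower by all 5 of its probes, with differences from -1.63 to -0.92. By one it read 4.30 in Arp8 KO against 5.89 in Arp5 KO, with 6.19 in WT and 5.28 in Arp8 OE. FTH1 has many near-identical copies, and FTHL17, a related ferritin gene, also read lower (2.44 in Arp5 KO and 0.76 in Arp8 KO), so which copy is measured is uncertain. TXN, which encodes thioredoxin, was lower by 1.60 and 1.51, SLC7A11, the cystine carrier, by 1.27 and NQO1, a quinone reductase, by 1.19. SLC7A11 had levels of -4.01 in Arp8 KO against -2.74 in Arp5 KO, with -0.68 in WT and -0.68 in Arp8 OE by the only one of its 3 probes that could be compared. FTL, the ferritin light chain, had differences from -0.37 to -0.34. Against WT the list had a median of -0.78 in Arp8 KO, compared with -0.26 in Arp5 KO. These genes respond to heme, so the disagreement of the labels bears on them directly. Without TXN, which lies in the run of genes on chromosome 9 described below, the median was -0.49 and 6 probes were over 2-fold lower.

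Targets of p53 had the highest median among the lists with more than 10 probes. Of 28 probes of 20 genes that act in arrest and repair, all 28 lay above 0, and all 28 were also higher in Arp8 KO than in WT. The median difference was 0.77, and 8 probes of 5 genes were over 2-fold higher: CDKN1A, SESN1, ZMAT3, PHLDA3 and 1 of the MDM2 probes. CDKN1A had differences of 1.72 and 1.49 by its 2 probes. SESN1, a stress-induced inhibitor of mTORC1 signalling, had differences of 1.43 and 1.53, and ZMAT3, an RNA-binding zinc finger gene, of 1.34 and 1.36. PHLDA3, which opposes AKT at the membrane, read -0.33 in Arp5 KO and 2.0 in Arp8 KO, beside a spot that was bright on the Arp5 KO array alone. MDM2, which marks p53 for degradation, had differences between 0.45 and 1.03 by its 4 probes. The smallest differences were those of GADD45A at 0.08 and PPM1D at 0.23. Against WT these probes had a median of 1.12 in Arp8 KO, compared with 0.24 in Arp5 KO and 0.27 in Arp8 OE.

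Of 13 probes for p53 targets that act in apoptosis, 5 were over 2-fold higher and the median was 0.37. BBC3, the BH3-only protein PUMA, was 3.19-fold higher by one probe (3.70 in Arp8 KO against 2.03 in Arp5 KO) and had differences of 1.56 and 0.06 by the others, so its probes disagree. TNFRSF10B, a TRAIL receptor, had differences of 1.24 and 1.04 and FAS of 1.21. BAX had differences between -0.48 and 0.29 and PMAIP1, the BH3-only protein NOXA, of -0.50. Among 23 probes of the BCL2 family, none was past 2-fold.

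**Figure D4:**
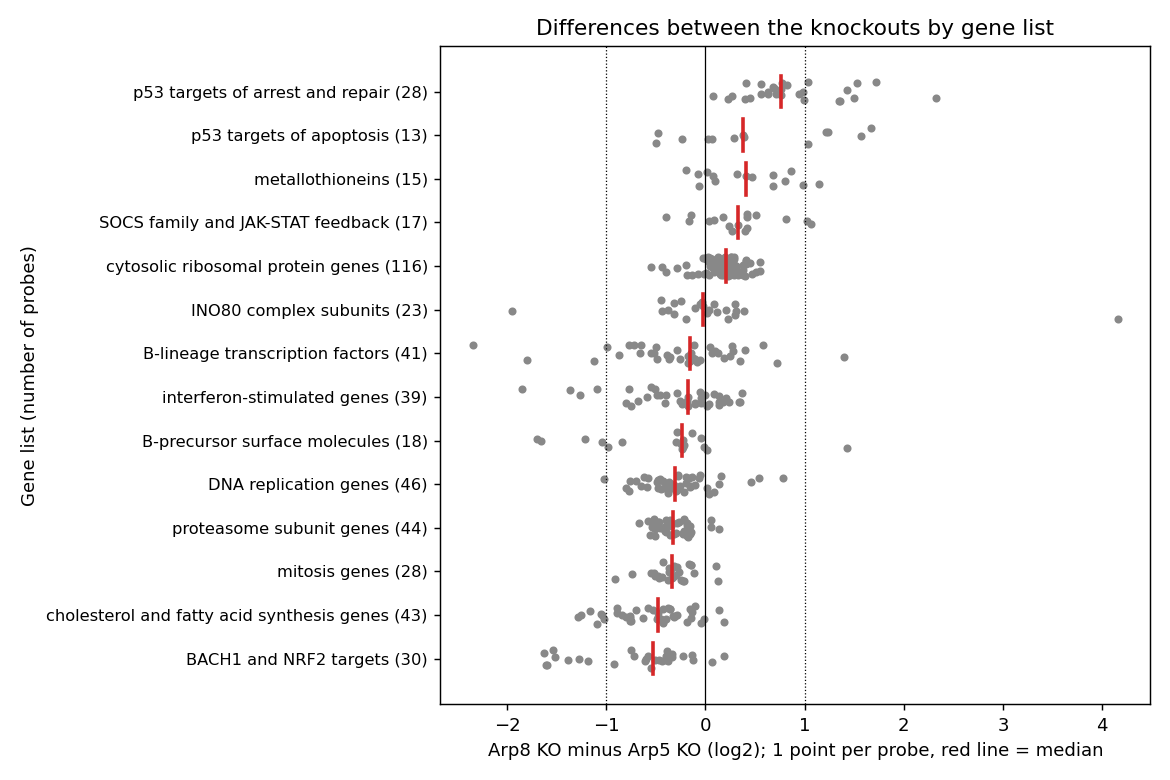
Difference Arp8 KO minus Arp5 KO (log2, x axis) of each probe in 14 gene lists, with the number of probes in brackets. Red lines are medians and dotted lines mark 2-fold. All 28 probes of the p53 arrest and repair list lie above 0, and 28 of the 30 probes of the BACH1 and NRF2 list lie below.

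Genes of cholesterol and fatty acid synthesis were lower in Arp8 KO as a list. Of 43 probes, 41 lay below 0, 7 probes of 6 genes were over 2-fold lower and none was higher, with a median of -0.48. The 6 genes were ELOVL6, which elongates fatty acids (0.64 in Arp5 KO and -0.64 in Arp8 KO), INSIG1, which retains SREBP in the endoplasmic reticulum (2.10 and 0.84), FADS1 and FADS2, the fatty acid desaturases (4.60 and 3.56 for FADS2), HMGCS1, an early enzyme of cholesterol synthesis (0.30 and -0.79), and SREBF1, the gene for SREBP-1 (0.85 and -0.20). In Arp8 OE the same probes of INSIG1, FADS2 and SREBF1 read 2.69, 5.05 and 1.48, above Arp5 KO, and that of HMGCS1 read -0.58, near Arp8 KO. FASN and PMVK lay above 0, at 0.13 and 0.18. With normexp background correction 3 probes of the list were over 2-fold lower, and as gene means 3 genes were.

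Small shifts shared by a whole list were seen among housekeeping genes. Of 44 probes for proteasome subunits, 41 lay below 0, with a median of -0.32 and a range from -0.67 to 0.14. Mitosis genes had 26 of 28 probes below 0 and a median of -0.34, led by HMMR at -0.91 and KIF11 at -0.75. DNA replication genes had 38 of 46 below 0 and a median of -0.31, where MCM5 (-0.78) stood against MCM4 at 0.78. RFC3 read -1.02 by 1 probe but -0.28 by another, and over gene means no replication gene was past 2-fold. Cytosolic ribosomal protein genes went the other way, with 105 of 116 probes above 0 and a median of 0.20, which was 0.085 with quantile normalization. Over all probes compared, 53.2% lay above 0. None of these lists but that of replication, with 1 probe, had a probe past 2-fold. Metallothioneins had a median of 0.40 over 15 probes, from MT1X at 1.15 (beside a bright spot) and 0.98 down to MT2A at -0.19. Glycolysis and hypoxia genes (median -0.06), heat shock genes (-0.03), respiratory chain genes (-0.01) and aminoacyl-tRNA synthetases (0.05) had medians near 0 and no probe past 2-fold.

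Genes of the B lineage leaned lower in Arp8 KO, with exceptions. For surface molecules of B cell precursors 16 of 18 probes lay below 0 (median -0.24). For transcription factors 28 of 41 did (median -0.16), and for the pre-B receptor list 20 of 29 (median -0.10). Over all probes compared, 46.8% lay below 0. Of 18 probes for surface molecules of B cell precursors, 4 were over 2-fold lower in Arp8 KO and 1 was higher. CD22, which dampens B cell receptor signals, read -2.52 in Arp8 KO against -0.83 in Arp5 KO, with 0.06 in WT and -0.67 in Arp8 OE. IL7R, the receptor of interleukin-7, read 2.35, 4.0, 4.04 and 3.18 in the same order. CD38 and CD52 were 2.32-fold and 2.06-fold lower, whereas MME had differences of 0.02 and -0.05. The higher one was CD9, a tetraspanin, which was low in Arp5 KO alone (2.03, against 3.46 in Arp8 KO, 3.39 in WT and 3.71 in Arp8 OE). Among transcription factors, SPIB and BCL6 were lower (BCL6 at -1.80, beside a bright spot) and ID3, an inhibitor of E proteins, was 2.64-fold higher in Arp8 KO. ID1 and ID2, of the same list, went the other way, at -0.99 and -0.36 by 1 probe each. PAX5, EBF1 and TCF3 had differences between -0.16 and 0.13. In the pre-B receptor list VPREB3 was 2.26-fold lower and VPREB1 1.79-fold lower, and RAG2 had a difference of -0.61 (beside a bright spot). DNTT, the terminal transferase, had a difference of 0.94 and RAG1 of 0.40 and 0.61. Of the T cell markers only CD4 and LCK could be compared, and CD4 had a difference of -0.15. Of 39 probes for interferon-stimulated genes, 4 were over 2-fold lower: IFI44 at -1.85, ISG20 at -1.36 and XAF1 at -1.26 and -1.09. With normexp background correction 2 probes of that list were over 2-fold lower. SOCS2 and CISH, feedback inhibitors of JAK-STAT signalling, were over 2-fold higher, at 1.06 and 1.02 by their highest probes. Among the 17 probes of the SOCS list, 1 was over 2-fold higher with normexp background correction, and over gene means no gene was. SOCS2 and CISH were both higher in Arp5 KO than in WT as well, SOCS2 at 1.71 against -0.66.

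When genes were ordered along the chromosomes, 1 long run stood out. On chromosome 9, from LOC100128361 and BICD2 to INIP, the median of 11 neighbouring genes stayed below -0.5 over 64 measured genes. The run was found in these values, so its own difference is a description. The median over its genes was -0.99, with quartiles of -1.11 and -0.68, and 59 of the 64 genes were below 0. By gene means, 31 of the 64 (48.4%) were over 2-fold lower in Arp8 KO and none was over 2-fold higher. Over all genes compared, 1.88% of gene means were over 2-fold lower and 1.18% over 2-fold higher. The change at both ends took few genes. The 12 genes before the run had a median of -0.03, although IPPK next to it read -0.83, and the 12 genes after it had a median of -0.14, with SLC31A2 at -0.20 and FKBP15 at -0.02 next to INIP at -1.08. The rest of the chromosome, 374 genes, had a median of 0.05. No other run below -0.5 held more than 3 genes, and no window of 11 genes had a median above 0.5.

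The arrays not used to find the run gave its pattern more shape. Against WT, the 64 genes had a median of -0.98 in Arp8 KO, compared with -0.04 in Arp5 KO and -1.11 in Arp8 OE. Arp8 OE and Arp8 KO thus shared the low level, with a median difference of 0.09 between them. The genes have unrelated roles. They include FANCC, of the Fanconi anemia pathway (-1.09), XPA, which acts in nucleotide excision repair (-0.68), SMC2, a condensin subunit (-1.46), RNF20, a ubiquitin ligase for histone H2B (-1.13), NCBP1, a cap-binding protein (-1.10), SEC61B, of the protein channel of the endoplasmic reticulum (-1.13), UGCG, which makes glucosylceramide (-1.11), and TXN (-1.56). Also in the run were AOPEP and GNG10, named above, and SUSD3. SUSD3 read -0.68 in Arp8 KO against 1.34 in Arp5 KO, with 1.99 in WT and 1.32 in Arp8 OE. It was thus not low in Arp8 OE. Between the ends of the run, 15 more probes were well above background on only 1 array of the pair, and 5 of these were at least 2-fold lower in Arp8 KO, none higher. FGD3, an exchange factor for Cdc42, read 0.79 in WT and 0.62 in Arp5 KO and was not well above background in Arp8 KO or Arp8 OE, so Arp8 KO was at least 55.1-fold below Arp5 KO. ANKS6, an ankyrin repeat protein of cilia, was at least 19.4-fold lower and likewise not well above background on either of these arrays. The run held 44 of the 409 probes over 2-fold lower (10.8%). DNA copy number was not measured here, and no cause was tested.

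**Figure D5:**
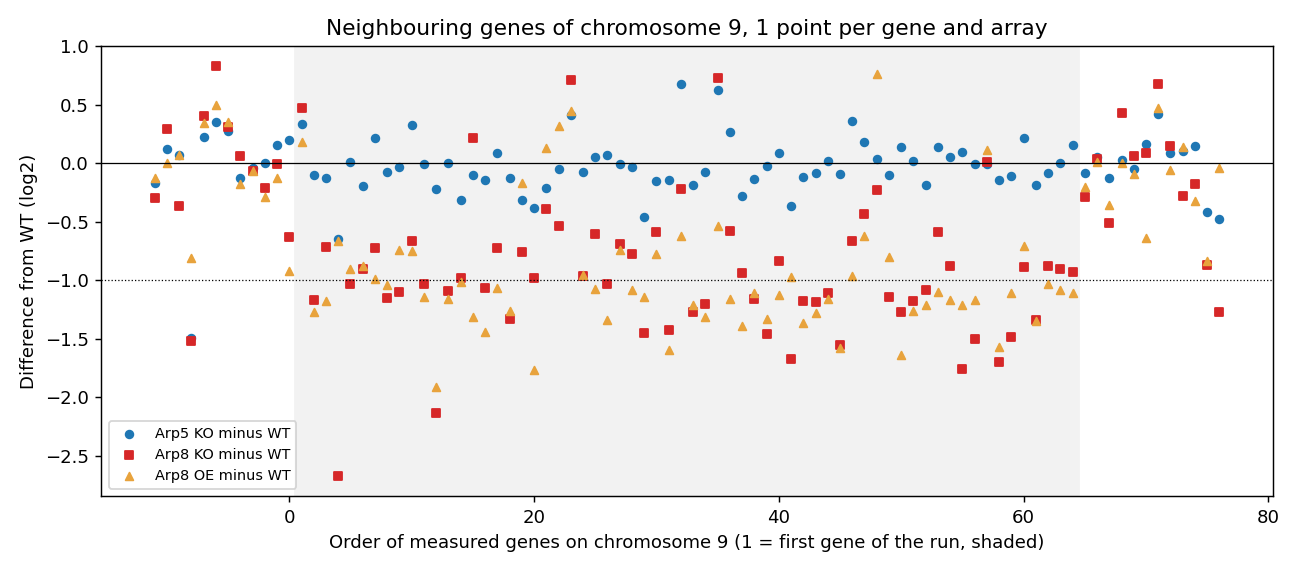
Difference from WT (log2, y axis) of the 64 genes of the run (shaded) and 12 measured genes on each side, in order along chromosome 9, for Arp5 KO, Arp8 KO and Arp8 OE. In the run Arp5 KO lies around 0 (median -0.04), and Arp8 KO and Arp8 OE lie around -1 (medians -0.98 and -1.11).

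Smaller groups of adjacent genes were past 2-fold in the same direction. S100A6, S100A4 and S100A2, calcium-binding proteins encoded side by side, had differences of -1.21, -1.83 and -1.27. TLR10, TLR1 and TLR6, toll-like receptor genes of 1 cluster, had differences of -1.44, -1.28 and -1.32. The prostaglandin receptor genes PTGDR and PTGER2 had differences of -1.92 and -2.13, the granzyme genes GZMK and GZMA of -1.14 and -1.04, TMC6 and TMC8 of -1.02 and -1.49, and ACTA2 and FAS of 2.01 and 1.21. Other pairs were FBXO22 with TMEM266 and KDM7A-DT with SLC37A3. These groups were named after their values were seen.

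The WT array, which had no part in choosing the probes, mostly lay with Arp5 KO. Of the 373 probes over 2-fold higher in Arp8 KO, WT was nearer to Arp5 KO for 344 (92.2%). Of the 409 that were lower, WT was nearer to Arp5 KO for 308 (75.3%). The Arp8 OE array was divided: it was nearer to Arp5 KO for 167 of the higher probes (44.8%) and for 198 of the lower (48.4%). Taken jointly, both WT and Arp8 OE were nearer to Arp5 KO for 166 of the higher and 182 of the lower probes, and WT was nearer to Arp5 KO but Arp8 OE nearer to Arp8 KO for 178 and 126. Without the run on chromosome 9 the share of lower probes with Arp8 OE nearer to Arp5 KO was 53.7%. Only 28 of the higher and 85 of the lower probes had both other arrays nearer to Arp8 KO. Of the lower probes, 20.0% lay beside a spot bright on the Arp5 KO array alone, against 2.92% of all probes compared, and 9.65% of the higher probes lay beside a spot bright on the Arp8 KO array alone, against 3.08%. Without probes beside such spots, WT was nearer to Arp5 KO for 92.1% of the higher and 89.6% of the lower probes.

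A stricter count asked that WT and Arp8 OE both lie within 2-fold of one knockout and over 2-fold from the other. Arp8 KO stood apart in this way for 42 genes that were higher (46 of the 373 higher probes) and 65 that were lower (76 of the 409 lower probes). Arp5 KO stood apart for 10 genes that it held low and 4 that it held high, with 1 probe each. Only probes that name a gene entered this count. Probes printed in a single place were left out where they lay beside a spot bright on 1 array of the pair. The 373 and 409 probes were not limited in these ways. The 10 were PYCARD, ACTR5, TNFSF4, ATP6V0E2-AS1, NECTIN1, CD9, SLC37A3, KCNG1, LINC00674 and RAB40B, and the 4 were S100A4, ESAM, ZBTB21 and SPACA6. TNFSF4, the OX40 ligand, read -1.0 in Arp8 KO against -2.90 in Arp5 KO, with -1.76 in WT and -1.57 in Arp8 OE. S100A4 read 1.64, 3.48, 1.20 and 2.17 in the same order. These lists were read after the values were known. SESN1, ZMAT3, FAS and 1 probe each of CDKN1A and BBC3 were among those in which Arp8 KO alone was high.

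Probes well above background on only 1 array of the pair give bounds. There were 1945, of which 245 (12.6%) were at least 2-fold higher in Arp8 KO and 369 (19.0%) at least 2-fold lower. For the bound, the dim side was set to the lowest signal that counted as well above background on that array, or to its own signal where that was higher. Of these, 95 and 184 lay beside a spot bright on a single array of the pair. GSTK1, a glutathione transferase of mitochondria and peroxisomes, read -0.67 in Arp8 KO, -1.56 in WT and -1.04 in Arp8 OE. It did not pass the background flag in Arp5 KO and was at least 20.9-fold higher in Arp8 KO. TENM2, a teneurin of the cell surface, was well above background in Arp8 KO and Arp8 OE (-0.93 and -0.91) and not in WT or Arp5 KO, at least 17.5-fold higher in Arp8 KO. CASP1, the protease that inflammasomes activate, showed the reverse, with -2.62 in WT and -1.40 in Arp5 KO, and was at least 13.6-fold lower in Arp8 KO. MBNL2, a splicing regulator (at least 15.7-fold), YOD1, a deubiquitinase (at least 26.8-fold), and ZNF256 (at least 12.9-fold) were lower in the same way, and none of them was well above background in Arp8 KO or Arp8 OE. Leaving out probes beside bright spots, WT but not Arp8 OE was well above background for 60 of 185 lower probes, and Arp8 OE but not WT for 47 of 150 higher probes.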

How the data were processed

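Total RNA of 4 Nalm-6 cultures was hybridised to 1-colour (Cy3) Agilent 4x44K arrays, 1 array per group, all on 1 slide. Per the file headers, Feature Extraction made the processed signal intensity, which is background-subtracted, and the flags for spots well above background. The deposited value table held the same processed signals times 1 factor per array and served only as an alternative. From the deposited intensity the log2 level was computed as the log2 ratio of the processed signal to the 75th percentile of the same array, averaged over the spots of a probe. Control spots and outlier spots (69 to 76 per array) were left out, and no spot was saturated. Between 56.6% and 58.1% of spots per array were well above background. A probe was compared where at least 50% of its usable spots were so flagged on both arrays. Probes were named through their accession in RefSeq (GRCh38.p14), for 27204 of 41000 probes (66.4%), and promoter windows and gene order come from the same tables. The number of arrays limits the precision, and with 1 array per group no test was made.

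Genes named were the 15 furthest in each direction, ranked without probes beside a bright spot. Added to these were the 10 genes in each direction with 2 or more probes whose smallest difference was furthest from 0. Called probes with 5 or more spots and members of 36 gene lists were named too. A few of these genes are not reported here. The gene lists and the comparison were chosen with earlier results of these data known. Alternatives were median scaling, quantile and cyclic loess normalization, the deposited value table, normexp background correction (offset 50) on the median signal, other filters, gene means, a 4-fold threshold, and leaving out probes beside a bright spot. The scripts were tested on simulated data. Python 3.11.15, numpy 2.4.6, pandas 2.3.3, matplotlib 3.10.9 and R 4.3.3 with limma 3.58.1 were used.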

Additional observations from a re-analysis of the deposited data

How the results depend on the processing

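No paired analysis was possible because each group had 1 array and the groups share only the replicate number 1. Counts of probes past 2-fold, 373 higher and 409 lower in Arp8 KO, were 104 and 150 with normexp background correction, 618 and 778 with probes well above background on at least 1 array, 1611 and 1952 with no filter and no floor, 135 and 214 as gene means, and 36 and 37 at 4-fold. The median of the BCL2 family changed sign, from 0.14 to -0.022, with no filter and no floor. The p53 arrest and repair median was 0.67 with normexp, and the BACH1 and NRF2 median was -0.45 over gene means. The share of lower probes with WT nearer to Arp5 KO (75.3%) was 89.6% without probes beside a bright spot and 56.8% at 4-fold. For Arp8 OE the share (48.4%) was 57.1%, 35.1% at 4-fold and 53.7% without the chromosome 9 run, an alternative chosen after seeing the data. Among higher probes the shares were 88.9% for WT and 50% for Arp8 OE at 4-fold. Bounds past 2-fold, 245 higher and 369 lower, were 150 and 185 without probes beside a bright spot. Of 396 list medians recomputed, 375 stayed close to their value. Of 11459 values of named probes, 614 moved and none reversed. The cause of these shifts was not tested. With 1 array per group, no spread between cultures is known.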

Other observations

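Some genes outside the lists stood apart in Arp8 KO, and they were chosen after their values were seen. LCP1, the actin-bundling protein of leukocytes, read 3.10 in Arp8 KO against 4.58 in Arp5 KO, with 4.93 in WT and 4.78 in Arp8 OE. CNN2, a calponin, read -2.30, -0.91, -0.47 and -0.79 by its brighter probe. TUBA4A, an alpha tubulin, read 3.23, 4.59, 5.04 and 4.51 by its brightest of 3 probes. TOX, a regulator of lymphocyte development, read -3.75, -2.47, -2.40 and -2.54, and TET2, which oxidises methylated cytosine, read -4.59, -3.08, -3.31 and -3.44. In all of these Arp8 KO alone was low.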
